A study of Mus musculus with 6 samples.

Results

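The unfolded protein response (UPR) genes examined here are 10 genes listed by symbol, *Hspa5*, *Hsp90b1*, *Xbp1*, *Atf4*, *Atf6*, *Ddit3*, *Herpud1*, *Dnajb9*, *Ern1* and *Eif2ak3*. They were found by NCBI gene identifier among the 19790 genes of a read-count table, and all 10 were present. The table holds RNA-seq counts for gonadal white adipose tissue (gWAT), the fat pad beside the male reproductive organs, of male wild-type C57BL/6 mice. The 3 mice of one group ate a normal chow diet (NCD) and the 3 mice of the other a high-fat diet (HFD), each for 8 weeks. The labels call the mice of both groups WT, a name the methods use also for mice with floxed *Tmem86a* alleles and no adipoq-Cre. They give an age of 6 weeks at the start of the diets, whereas the methods give 8 weeks for the HFD. The comparison asks how these genes differed between the fat of lean and of overfed mice.

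The UPR is the set of pathways by which a cell senses unfolded protein in the endoplasmic reticulum (ER) and adjusts its folding capacity. The sensors IRE1α (*Ern1*), PERK (*Eif2ak3*) and ATF6 (*Atf6*) sit in the ER membrane and are held by the chaperone BiP (*Hspa5*) in unstressed cells. IRE1α splices the mRNA of *Xbp1* into a form that encodes an active transcription factor, PERK phosphorylates eIF2α and so favours the translation of ATF4, and ATF6 is cut in the Golgi to release a transcription factor. These factors raise chaperones, degradation components and, under lasting stress, the pro-apoptotic factor CHOP (*Ddit3*). The response has been studied in obese adipose tissue, and it is also highly active in cells that secrete much protein. Counts per gene cannot tell spliced from unspliced *Xbp1* mRNA, and they carry no information on phosphorylation or cleavage of the sensors.

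Totals per library ran from 49575113 to 66360046 counts. Values below are counts per 1e6 after TMM scaling, a correction by edgeR for libraries in which few genes take many counts, and are called scaled CPM. NCD replicate 1 stood apart. The 11 genes of seminal vesicle secretion took 58.6% of its counts, 11.2% and 2.30% of those of the other NCD libraries, and at most 0.121 CPM of those of an HFD library. Its TMM factor was 0.496, and those of the other libraries lay between 1.02 and 1.27. The 12 adipocyte marker genes summed to 0.434% of its counts and to between 1.91% and 5.07% of the counts of the other 5 libraries, and no marker was at 0 in all libraries. The 9 epithelial marker genes summed to 686 CPM there and to between 48.1 and 227 CPM elsewhere. Each result is therefore given with and without this library. The fit without it still contained a difference in seminal vesicle RNA between the diets. There edgeR called all 11 seminal vesicle genes, 3 of the 9 epithelial and 3 of 7 smooth muscle marker genes lower on HFD (adjusted p under 0.05, 10.1% of all genes).

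The promoters of 9 of the 10 genes were found in RefSeq's annotation of GRCm38.p6 (*Atf6* had no entry), and the 250 bases before each start were searched on both strands. The ER stress response element (ERSE) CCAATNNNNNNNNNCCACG, which binds ATF6 together with NF-Y, was present in the promoters of *Hspa5* and *Hsp90b1*, and in 0.113% of all 32851 promoters of the same length. The related element ERSE-II, ATTGGNCCACG, was present in that of *Herpud1* and in 0.0304% of all promoters. The amino acid response element written TGATGCAA (CARE), which binds ATF4 with C/EBP factors, was found in *Herpud1* as well and in 0.791% of all promoters. The element TGACGTGG (UPRE), recognised by spliced XBP1, was found in none of the 9 and in 0.563% of all promoters. These letters describe the window only. That of *Herpud1* ended in an ERSE short of its last letter, and bases beyond the edge were not searched. The 3 promoters that held a motif are printed 5′ to 3′ on the strand of the gene, with the motifs in capitals, because no other promoter among the 9 held one:
Hspa5 (chr2:34771840-34772089, plus strand): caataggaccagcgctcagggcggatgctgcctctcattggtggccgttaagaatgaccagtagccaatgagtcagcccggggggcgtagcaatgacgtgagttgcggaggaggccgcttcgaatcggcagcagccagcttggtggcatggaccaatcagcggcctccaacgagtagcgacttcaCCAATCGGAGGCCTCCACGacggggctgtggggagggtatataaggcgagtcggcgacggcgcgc
Hsp90b1 (chr10:86705445-86705694, minus strand): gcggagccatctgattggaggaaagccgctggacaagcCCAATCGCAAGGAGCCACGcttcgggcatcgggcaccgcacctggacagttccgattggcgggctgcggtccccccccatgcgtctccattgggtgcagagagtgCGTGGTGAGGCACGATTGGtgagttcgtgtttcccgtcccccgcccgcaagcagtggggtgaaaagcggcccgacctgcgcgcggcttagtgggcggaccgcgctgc
Herpud1 (chr8:94386179-94386428, plus strand): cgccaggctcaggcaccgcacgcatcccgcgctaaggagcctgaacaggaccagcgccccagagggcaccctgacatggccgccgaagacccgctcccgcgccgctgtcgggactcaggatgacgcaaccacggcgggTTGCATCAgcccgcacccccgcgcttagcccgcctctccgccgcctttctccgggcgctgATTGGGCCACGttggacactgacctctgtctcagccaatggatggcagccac

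In *Hspa5* the ERSE lay from 65 to 47 bases before the start. In *Hsp90b1* one copy lay from 212 to 194 bases before the start and a second, on the opposite strand, from 107 to 89. In *Herpud1* the ERSE-II lay from 52 to 42 bases before the start, and the CARE, on the opposite strand, from 112 to 105. ERSE and ERSE-II share the letters CCACG at their end.

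None of the 10 genes passed an adjusted p under 0.05 between the diets in the fit of all 6 libraries, when edgeR's quasi-likelihood test was adjusted by the Benjamini-Hochberg method over 15241 genes, of which 7.47% passed. At an unadjusted p under 0.05 the count was also 0, where 29.7% of all genes reached it. Without NCD replicate 1 none passed either, where 20.9% of 15510 genes did, and 2 genes, *Atf6* and *Hsp90b1*, had an unadjusted p under 0.05, which 37.6% of all genes in that fit reached. DESeq2 called 1 gene, *Ern1*, on all 6 libraries (25.6% of all genes), and limma voom with sample quality weights called 1, *Hsp90b1* (36.5% of all genes). The fitted log2 fold change was above 0 in 3 genes and below 0 in 7 with all libraries, above 0 in 8 and below 0 in 2 without NCD replicate 1, and above 0 in 7 and below 0 in 3 with all libraries scaled by their totals. In scaled CPM, 8 of the 10 genes were highest in NCD replicate 1, as were 33.1% of all genes tested. Relative to the library totals, of which the seminal vesicle genes took a large share there, the number was 4 of the 10, beside 8.34% of all genes.

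**Figure D1:**
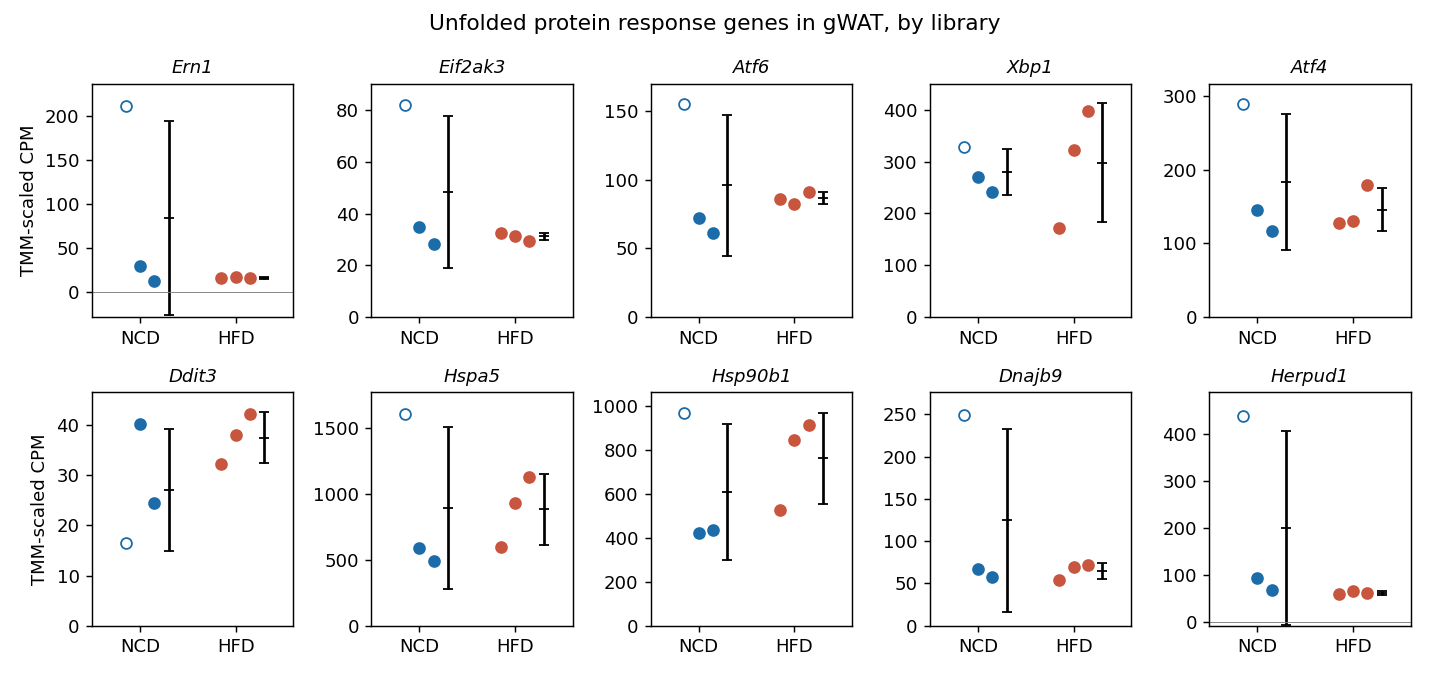
Scaled CPM (TMM) of each of the 10 genes (vertical axes, one scale per gene, from 0 or below where an error bar reaches below it) in the 3 NCD (blue) and 3 HFD (red) libraries; the open circle is NCD replicate 1, and the black marks are the mean ± SD of 3 mice. The open circle lies above all other points in 8 genes and below them in *Ddit3*.

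Among the sensors, *Ern1* moved most when NCD replicate 1 was left out. The gene was at 212, 29.1 and 12.8 scaled CPM (NCD replicates 1 to 3) against 15.4, 17.3 and 15.7 scaled CPM (HFD replicates 1 to 3). NCD replicate 1 exceeded the mean of the other NCD libraries 10.1-fold, the HFD libraries lay close together, and they fell between the other NCD values. On HFD its log2 fold change was -2.39 (SE of the fit 1.02, adjusted p = 0.178, edgeR), or -0.36 without NCD replicate 1 (SE 0.333, adjusted p = 0.469, edgeR).

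*Eif2ak3*, which encodes PERK, was at 82.0, 34.7 and 28.0 scaled CPM (NCD replicates 1 to 3) against 32.4, 31.5 and 29.5 scaled CPM (HFD replicates 1 to 3). All HFD values lay between NCD replicates 2 and 3. Its log2 fold change of -0.63 (SE 0.411, adjusted p = 0.344, edgeR) became 0.003 without NCD replicate 1 (SE 0.131, adjusted p = 0.989, edgeR).

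*Atf6* was at 155, 72.1 and 60.8 scaled CPM (NCD replicates 1 to 3) against 86.2, 82.4 and 90.9 scaled CPM (HFD replicates 1 to 3). The HFD libraries spanned a narrow range above NCD replicates 2 and 3 and below NCD replicate 1. With all libraries the log2 fold change was -0.15 (SE 0.365, adjusted p = 0.807, edgeR), and without NCD replicate 1 it was 0.40 (SE 0.126, unadjusted p = 0.0215 and adjusted p = 0.0778, edgeR), the smallest adjusted p of the 10 genes in that fit.

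Of the transcription factors, *Xbp1* was at 328, 269 and 241 scaled CPM (NCD replicates 1 to 3) against 173, 323 and 398 scaled CPM (HFD replicates 1 to 3). The HFD libraries spread more widely than the NCD libraries, with HFD replicate 1 the lowest and HFD replicate 3 the highest of all 6. The mean was 279 ± 44.3 on NCD and 298 ± 115 on HFD (SD, n = 3 mice each). Its log2 fold change was 0.09 (SE 0.338, adjusted p = 0.873, edgeR), and 0.24 without NCD replicate 1 (SE 0.358, adjusted p = 0.661, edgeR).

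*Atf4*, whose protein is made mainly through translational control, was at 289.6, 145 and 117 scaled CPM (NCD replicates 1 to 3) against 128, 131 and 179 scaled CPM (HFD replicates 1 to 3). Apart from NCD replicate 1, the diets overlapped. On HFD the log2 fold change was -0.33 (SE 0.375, adjusted p = 0.576, edgeR), and 0.17 without that library (SE 0.206, adjusted p = 0.593, edgeR).

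*Ddit3*, the gene of CHOP, was at 16.5, 40.3 and 24.5 scaled CPM (NCD replicates 1 to 3) against 32.3, 38.02 and 42.3 scaled CPM (HFD replicates 1 to 3). It was the one gene of the 10 that was lowest in NCD replicate 1, at 0.509 times the mean of the other NCD libraries. NCD replicate 2 lay within the HFD range. Between diets the log2 fold change was 0.47 (SE 0.334, adjusted p = 0.384, edgeR), and 0.23 without NCD replicate 1 (SE 0.241, adjusted p = 0.531, edgeR).

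The chaperone *Hspa5* (BiP), a widely used readout of the response, was at 1602, 591 and 492 scaled CPM (NCD replicates 1 to 3) against 595, 928 and 1128 scaled CPM (HFD replicates 1 to 3). Its mean was 895 ± 615 on NCD and 883 ± 269 on HFD (SD, n = 3 mice each). NCD replicate 1 was the highest library and NCD replicates 2 and 3 were the lowest. The log2 fold change was -0.02 with all libraries (SE 0.540, adjusted p = 0.986, edgeR) and 0.72 without NCD replicate 1 (SE 0.315, adjusted p = 0.155, edgeR), where every HFD library lay above both NCD libraries, HFD replicate 1 by little.

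*Hsp90b1* encodes GRP94, the HSP90 of the ER lumen, and carries ERSE copies in its promoter like *Hspa5*. It was at 966, 422 and 435 scaled CPM (NCD replicates 1 to 3) against 526, 847 and 912 scaled CPM (HFD replicates 1 to 3). The order of the libraries was close to that of *Hspa5*, with NCD replicate 1 highest and NCD replicates 2 and 3 lowest. The log2 fold change was 0.33 (SE 0.431, adjusted p = 0.641, edgeR), and 0.84 without NCD replicate 1 (SE 0.284, unadjusted p = 0.0262 and adjusted p = 0.0874, edgeR), where the diets did not overlap. By limma voom with sample quality weights, which gives libraries that vary more a lower weight, it was 0.86 with all 6 libraries (adjusted p = 0.0225, limma).

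*Dnajb9*, a co-chaperone of BiP also known as ERdj4, was at 249, 67.4 and 57.2 scaled CPM (NCD replicates 1 to 3) against 54.1, 69.0 and 71.7 scaled CPM (HFD replicates 1 to 3). Apart from NCD replicate 1 the values of the diets overlapped. The fitted log2 fold change was -0.94 (SE 0.587, adjusted p = 0.327, edgeR), and 0.08 without NCD replicate 1 (SE 0.167, adjusted p = 0.773, edgeR).

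*Herpud1*, a membrane protein of ER-associated degradation, was at 438, 92.7 and 67.3 scaled CPM (NCD replicates 1 to 3) against 57.8, 66.3 and 61.3 scaled CPM (HFD replicates 1 to 3). Every HFD library lay below every NCD library, although HFD replicate 2 and NCD replicate 3 differed little. For this gene the log2 fold change was -1.69 (SE 0.724, adjusted p = 0.182, edgeR), and -0.36 without NCD replicate 1 (SE 0.164, adjusted p = 0.172, edgeR).

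*Herpud1* was the only one of the 10 genes whose diets did not overlap with all 6 libraries. Over all genes tested 39.2% did not overlap, 20.5% higher and 18.7% lower on HFD. Without NCD replicate 1, 4 of the 10 did not overlap, *Hspa5*, *Hsp90b1* and *Atf6* higher and *Herpud1* lower on HFD. Over all genes of that fit 56.7% did not overlap, 28.5% higher and 28.1% lower, so the count of the 10 genes was not above the background. With scaling by library totals, which moved the median log2 fold change of all genes from -0.08 to 0.45 and that of the 10 genes from -0.24 to 0.47, 2 genes did not overlap with all 6 libraries, *Hsp90b1* and *Atf6*, and both were higher on HFD. Of all genes 38.8% were higher and 4.11% lower without overlap under that scaling, so this count was below the background.

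**Figure D2:**
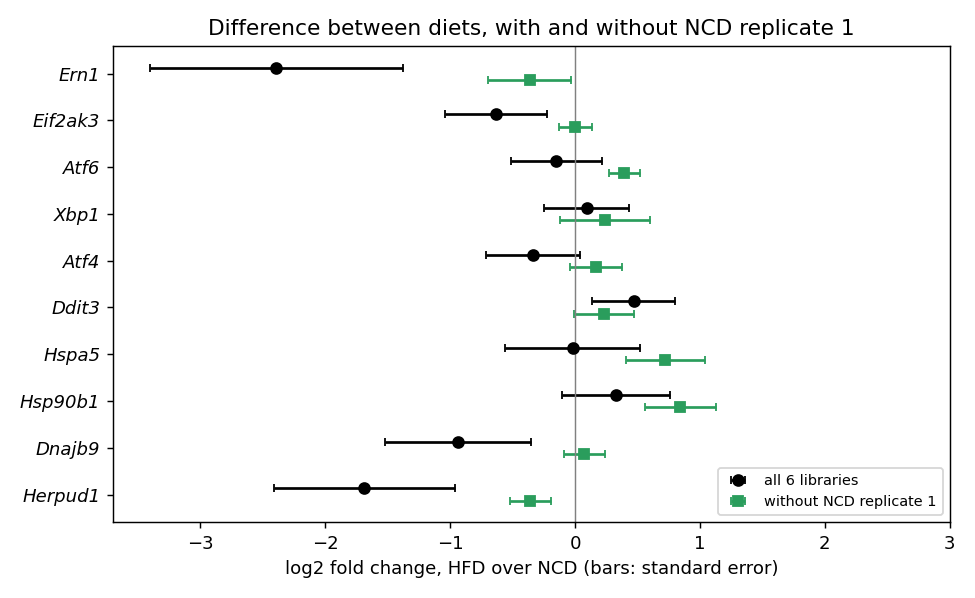
Fitted log2 fold change, HFD over NCD (horizontal axis), of each gene with all 6 libraries (black circles) and without NCD replicate 1 (green squares); bars are the standard error from edgeR's quasi-likelihood fit. The value of *Ern1* moved from -2.39 to -0.36 and that of *Hspa5* from -0.02 to 0.72.

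Ratios of 2 genes inside 1 library are free of any scaling between libraries. The ratio of *Hspa5* to *Hspa8*, its constitutive cytosolic paralog, was 1.84, 0.608 and 0.484 (NCD replicates 1 to 3) against 0.430, 0.681 and 0.795 (HFD replicates 1 to 3). NCD replicate 1 was the only library with more counts on the ER gene. The log2 ratio had means of -0.29 ± 1.03 on NCD and -0.70 ± 0.461 on HFD (SD, n = 3 mice each). The difference of -0.41 had p = 0.7 in an exact two-sided permutation test, where 3 mice against 3 cannot go below 0.1, and it was 0.18 without NCD replicate 1 (exact permutation test, p = 0.7, with 2 mice against 3).

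The ratio of *Hsp90b1* to *Hsp90ab1*, a cytosolic HSP90, was 1.15, 0.501 and 0.534 (NCD replicates 1 to 3) against 0.573, 0.789 and 0.907 (HFD replicates 1 to 3). Here too NCD replicate 1 was the highest, and every HFD library lay above NCD replicates 2 and 3. The log2 ratio had means of -0.57 ± 0.668 on NCD and -0.43 ± 0.339 on HFD (SD, n = 3 mice each). The difference of 0.14 had p = 0.8 in the same exact permutation test and was 0.52 without NCD replicate 1 (exact permutation test, p = 0.2, with 2 mice against 3).

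Levels of different genes were compared as FPKM, computed from the counts, the library totals and the exon length of each gene in GENCODE vM21. *Hspa5* and *Hsp90b1* were the highest of the 10 genes in all 6 libraries, *Hspa5* from 140.3 to 380.2 FPKM and *Hsp90b1* from 153 to 408 FPKM. Their ranges overlapped, and which of the pair was higher changed between libraries. *Xbp1* (68.0 to 211 FPKM) and *Atf4* (72.9 to 132 FPKM) came next in the other 5 libraries and overlapped, whereas in NCD replicate 1 *Herpud1* was at 111 FPKM, above *Atf4* and *Xbp1*. *Herpud1* (34.3 to 111 FPKM), *Ddit3* (9.18 to 60.1 FPKM) and *Dnajb9* (24.9 to 50.1 FPKM) followed in those 5 libraries and could not be ordered beyond their spread. The sensors were the lowest as a group in FPKM on HFD. *Atf6* was at 8.996 to 15.9 FPKM and *Eif2ak3* at 6.21 to 8.39 FPKM, ranges that did not overlap, and *Ern1* was at 1.68 to 12.9 FPKM, its upper end being NCD replicate 1 and its next value 3.65 FPKM.

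**Figure D3:**
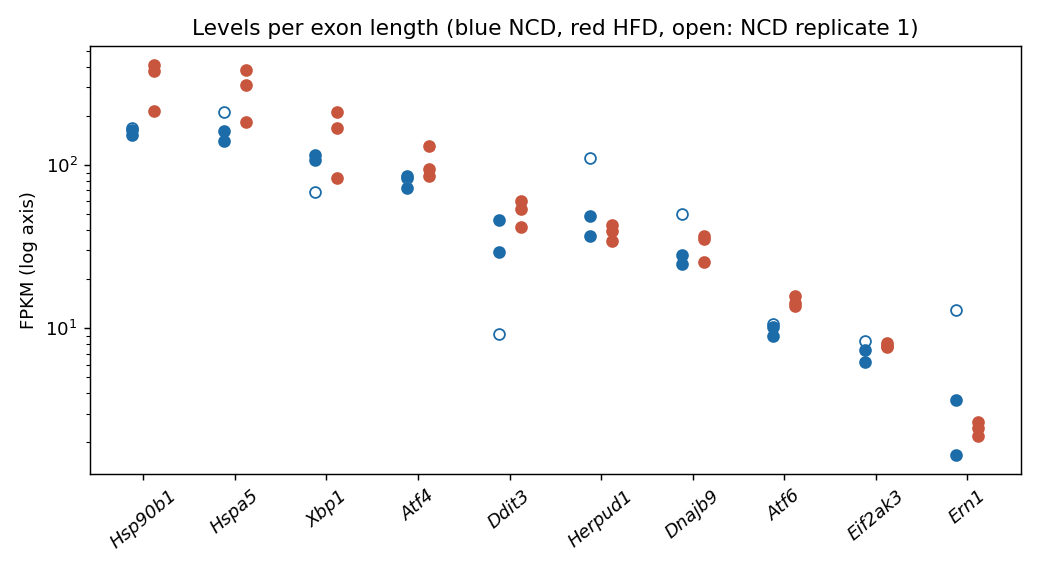
FPKM (vertical log axis) of the 10 genes, ordered by their mean on HFD, in the NCD (blue) and HFD (red) libraries; each point is 1 mouse and open circles are NCD replicate 1. *Hsp90b1* and *Hspa5* lie at the top in every library, and *Ern1* is at the bottom in 5 of the 6.

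Further genes of the pathway were taken from 6 lists with 118 genes, of which 117 had enough counts for the test. With all 6 libraries 5 of them rose and 1 fell on HFD by edgeR's quasi-likelihood test (over all genes 5.58% rose and 1.90% fell). Without NCD replicate 1, 9 rose and 5 fell (10.7% and 10.1% over all genes). The count was 0 without any one of the other 5 libraries, where from 2 to 7 of all genes passed. It was 20 of the 117 by DESeq2 (25.6% of all genes) and 35 by limma voom with sample quality weights (36.5% of all genes). Scaled by library totals, the median log2 fold change of the 117 genes was 0.34 rather than -0.32. Under that scaling 6 rose and none fell, beside 748 and 211 of all 15241 genes. In these bulk samples fewer cells of a type and less RNA per cell cannot be told apart. The 12 macrophage marker genes summed to between 378 and 1013 CPM in the NCD libraries and to between 3381 and 6087 CPM in the HFD libraries, and 6 of them passed the test upwards. The 6 plasma cell markers summed to between 19.2 and 71.7 CPM on NCD and to between 77.1 and 148 CPM on HFD. With all libraries 0 of these 6 passed, and without NCD replicate 1, 1 rose and 1 fell. Such sums are relative to library totals, of which seminal vesicle genes took 58.6% in NCD replicate 1. The 12 adipocyte marker genes summed to 4336, 37227 and 50680 CPM in NCD replicates 1 to 3 and to between 19114 and 26612 CPM on HFD, with 0 genes past the test with all libraries and 6 lower on HFD without NCD replicate 1. The part of these cells in the differences was not tested.

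The ER chaperones and foldases, which fold proteins and form their disulphide bonds, numbered 20. None of these genes passed in either fit, with 1 and 9 genes at an unadjusted p under 0.05 with all libraries and without NCD replicate 1. Beside 25.6% and 36.5% of all genes, DESeq2 called 1 and limma voom 4 of the 20. Their median log2 fold change was -0.33 with all libraries (0.44 with scaling by library totals) and 0.47 without NCD replicate 1, where the median of all genes was -0.08 and 0.02. NCD replicate 1 was the highest library in 16 of the 20 by scaled CPM, and in 6 relative to library totals (33.1% and 8.34% of all genes). Without it 9 of the 20 were higher in every HFD than in every NCD library and none was lower, beside 28.5% and 28.1% of all genes. The 1 and 9 genes at an unadjusted p under 0.05 stood beside 29.7% and 37.6% of all genes.

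The 27 genes of the translocon, signal peptidase, oligosaccharyltransferase and ER-Golgi transport, which bring proteins into and out of the ER, were all highest in NCD replicate 1 by scaled CPM. Relative to library totals 7 of the 27 were so (33.1% and 8.34% of all genes). None passed in either fit, with 1 and 7 genes at an unadjusted p under 0.05 (29.7% and 37.6% of all genes). Beside 25.6% and 36.5% of all genes, DESeq2 called 0 and limma voom 3 of the 27. Their median log2 fold change was -0.46 with all libraries (0.32 with scaling by library totals) and 0.11 without NCD replicate 1. The 18 genes of ER-associated degradation had medians of -0.31 (0.20 with scaling by library totals) and -0.11. None passed with all libraries (3 at an unadjusted p under 0.05, 3 by DESeq2, 5 by limma voom), and 13 of them were highest in NCD replicate 1 by scaled CPM (2 relative to library totals). The shares of all genes were those given for the 27 genes above. Of the 18 genes, *Ufd1*, a cofactor of the segregase p97, fell without NCD replicate 1 (log2 fold change -0.60, SE 0.118, adjusted p = 0.0238, edgeR), and had -0.45 with it (adjusted p = 0.190, edgeR) and -0.01 when all libraries were scaled by their totals.

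Of the 27 target genes of ATF4 and the eIF2α kinases, 1 rose and 1 fell with all libraries (5.58% and 1.90% over all genes). *Gdf15*, a stress-induced cytokine, was at 0.183, 0.686 and 0.521 scaled CPM (NCD replicates 1 to 3) against 6.36, 6.16 and 5.16 scaled CPM (HFD replicates 1 to 3). Every HFD library exceeded every NCD library many times over (log2 fold change 3.64, SE 0.512, adjusted p = 0.0224, edgeR), and it was 3.30 without NCD replicate 1. *Asns*, asparagine synthetase, was at 172, 77.6 and 99.9 scaled CPM in the NCD and at 18.8, 32.7 and 29.1 in the HFD libraries (log2 fold change -2.12, SE 0.370, adjusted p = 0.0304, edgeR), and fell without NCD replicate 1 as well (-1.71, adjusted p = 0.0126, edgeR). With scaling by library totals *Asns* was at -1.45 (adjusted p = 0.0502, edgeR) and *Gdf15* at 4.004 (adjusted p = 0.0354, edgeR). Under that scaling 3 genes of the list rose and none fell, beside 748 and 211 of all 15241 genes.

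Without NCD replicate 1, 2 of these 27 genes rose and 3 fell (10.7% and 10.1% over all genes). *Atf3*, a stress-induced transcription factor, was at 21.4, 8.56 and 8.22 scaled CPM in the NCD and at 137, 47.3 and 53.8 in the HFD libraries. Its log2 fold change was 3.25 in that fit (SE 0.548, adjusted p = 0.0156, edgeR) and 2.64 with all libraries (adjusted p = 0.0520, edgeR). *Cebpg*, a partner of ATF4, fell in that fit (log2 fold change -0.61, SE 0.118, adjusted p = 0.0224, edgeR), and had -0.07 when all libraries were scaled by their totals. The median of the list was -0.50 with all libraries (-0.0027 with scaling by library totals) and -0.09 without NCD replicate 1.

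Of 16 other sensors and regulators, 15 were tested and *Ern2* had too few counts. *Creb3l1*, an ER-membrane transcription factor of the family of ATF6-like proteins, rose with all libraries. It was at 12.4, 15.2 and 14.0 scaled CPM in the NCD and at 29.2, 51.8 and 69.1 in the HFD libraries (log2 fold change 1.85, SE 0.326, adjusted p = 0.0312, edgeR), and rose without NCD replicate 1 (1.79, adjusted p = 0.0273, edgeR). *Creb3l4*, a paralog at low level, rose in the fit without NCD replicate 1 (1.54, adjusted p = 0.0460, edgeR), and had 1.03 with all libraries (adjusted p = 0.200, edgeR). The median of the list was -0.01 with all libraries (0.49 with scaling by library totals) and 0.13 without NCD replicate 1.

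Of 10 cell death genes tied to ER stress, which are also used by other death signals, 3 rose and none fell with all libraries (5.58% and 1.90% over all genes). *Bax*, an effector of mitochondrial permeabilisation, was at 24.1, 23.9 and 26.5 scaled CPM in the NCD and at 45.6, 60.0 and 83.4 in the HFD libraries (log2 fold change 1.34, SE 0.239, adjusted p = 0.0322, edgeR). *Bcl2l11*, the gene of the BH3-only protein BIM, and *Pmaip1*, that of NOXA, had log2 fold changes of 1.51 (adjusted p = 0.0349, edgeR) and 1.82 (adjusted p = 0.0452, edgeR). All 3 passed without NCD replicate 1 too, with 1.34, 1.71 and 1.66, and were higher on HFD in each of the 13 alternatives tried. None of the 3 passed with the replicate block, where 12 of all genes passed. None did with any one of the other 5 libraries left out, where from 2 to 7 of all genes passed. *Pmaip1* also did not pass without a filter (adjusted p = 0.0539, edgeR) or with total counts (adjusted p = 0.0559, edgeR). In the fit without NCD replicate 1, 5 genes of the list rose and 1 fell (10.7% and 10.1% over all genes). The gene that fell was *Bbc3*, the gene of PUMA (log2 fold change -1.03, adjusted p = 0.0107, edgeR). *Bbc3* had -0.73 with all libraries (adjusted p = 0.227, edgeR) and -0.37 when these were scaled by their totals. NCD replicate 1 was the highest library in 1 of the 10 genes by scaled CPM and in 0 relative to library totals (33.1% and 8.34% of all genes). The median of the list was 0.87 with all libraries (1.29 with scaling by library totals) and 0.71 without NCD replicate 1.

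**Figure D4:**
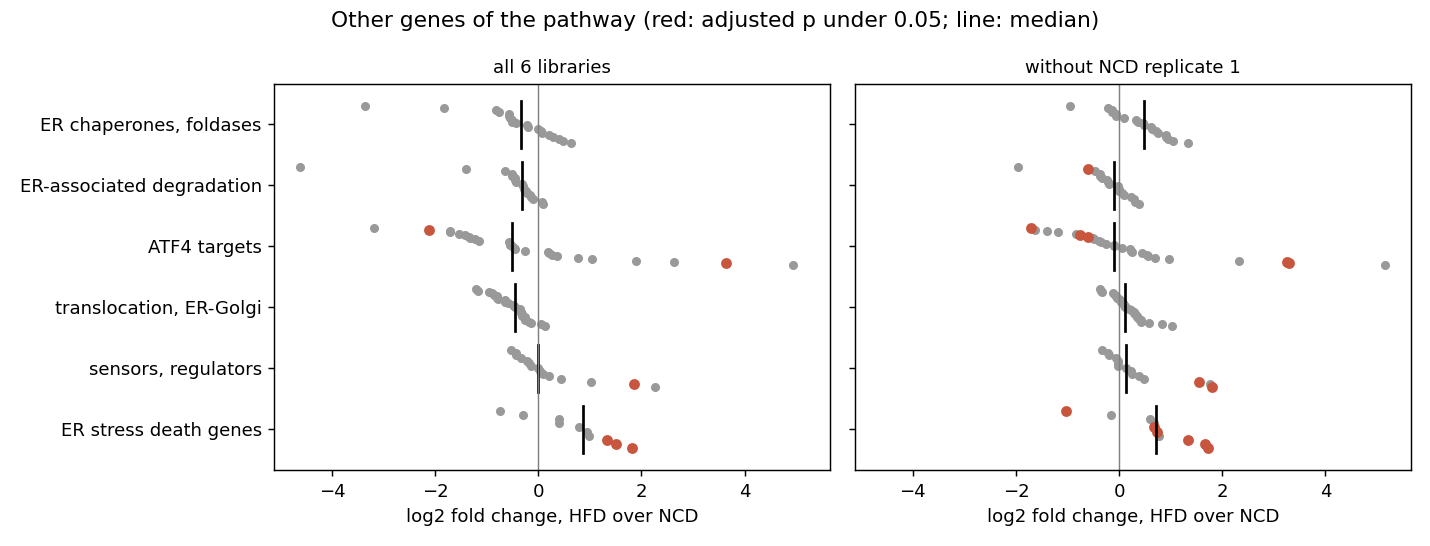
Log2 fold change, HFD over NCD (horizontal axis), of each gene of the 6 lists with all 6 libraries (left) and without NCD replicate 1 (right); red points passed an adjusted p under 0.05 and the black line is the median of the list. The median of the ER chaperones and foldases moved from -0.33 to 0.47, and that of the cell death genes from 0.87 to 0.71.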

How the data were processed

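RNA-seq of gWAT from 3 NCD-fed and 3 HFD-fed mice was analysed. The values deposited by the authors are whole-number read counts for each NCBI gene identifier, not normalized. The submitters' processing notes name bcl2fastq 2.20.0, Trimmomatic, HISAT2 2.1.0, StringTie 1.3.4d and DESeq2, and mm10 (GRCm38), with no roles. The annotation, the treatment of multi-mapped reads and the strand setting were not given in the sources used here, so reads of paralogs such as *Hspa5* and *Hspa8* may be shared. RefSeq's GRCm38.p6 annotation gave symbols for 19742 of 19790 identifiers. Each column carried a name given in a sample's labels (0 columns without a sample), and that of HFD replicate 3 bore the number 4.

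In edgeR 4.0.16 under R 4.3.3, filterByExpr removed low genes (minimum count 10, minimum total 15), TMM factors were computed, and the quasi-likelihood functions glmQLFit and glmQLFTest compared the diets. p-values were adjusted over all genes kept by the Benjamini-Hochberg method (threshold 0.05). The SE was taken as the log2 fold change over the root of F. The procedure was tested on counts simulated with equal gene levels in all libraries, apart from genes set to differ between diets. These counts held no library like NCD replicate 1, so the test does not cover that feature. Alternatives were no filter, median-of-ratios scaling, total counts, removal of the seminal vesicle genes, DESeq2 1.42.0, limma 3.58.1 (voom with sample quality weights), the replicate number as a block, and each library left out. FPKM used the union of exons of GENCODE vM21 basic transcripts. From each further list, up to 4 genes that passed are named, those of the fit of all libraries first. The 10 genes, the lists and the removal of NCD replicate 1 were chosen with earlier results of these data known. p-values measure the spread between the libraries of the mice sequenced, which on NCD includes their unequal shares of seminal vesicle RNA.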

Additional observations from a re-analysis of the deposited data

How the results depend on the processing

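The number of the 10 genes past the threshold was 0 in every edgeR fit and 1 with DESeq2 and with limma voom. Over all genes, 25.6% passed with DESeq2 and 36.5% with limma voom. With the replicate block 12 of all genes passed, and from 2 to 7 did without any one library other than NCD replicate 1. *Hspa5* (-0.02) was at 0.0097 without a filter, 0.77 with total counts, 0.0163 without the seminal vesicle genes, 0.62 with limma voom and 0.17 with the replicate block, and between -0.29 and 0.72 with a library left out. With total counts *Atf4* was at 0.37, *Atf6* at 0.56 and *Eif2ak3* at 0.11, and *Atf6* was at 0.26 with limma voom. With a library left out, *Xbp1* ranged from -0.16 to 0.38, *Atf4* from -0.55 to 0.17, *Atf6* from -0.37 to 0.40, *Dnajb9* from -1.26 to 0.0756 and *Eif2ak3* from -0.88 to 0.003. In all 13 alternatives *Hsp90b1* (0.12 to 1.04) and *Ddit3* (0.11 to 0.88) were above 0, and *Ern1* (-2.87 to -0.36) and *Herpud1* (-2.08 to -0.36) below 0. With total counts *Hsp90b1* was at 1.04, *Ern1* at -1.32, *Herpud1* at -0.75 and *Dnajb9* at -0.078. The ratio of *Hspa5* to *Hspa8* ranged from -0.78 to 0.18, and that of *Hsp90b1* to *Hsp90ab1* from -0.0773 to 0.52. The number of the 10 genes whose diets did not overlap was 2 with total counts, beside 38.8% of all genes higher and 4.11% lower. With a library left out it ranged from 1 to 4, the highest without NCD replicate 1, beside 56.7% of all genes. Without NCD replicate 2 it was 2, beside 3575 higher and 3420 lower of 15433 genes. Without NCD replicate 3 it was 3, beside 3887 higher and 3780 lower of 15764. Without HFD replicates 1 to 3 it was 2, 1 and 1, beside 3997, 3533 and 3619 genes higher and 3565, 3223 and 3338 lower.

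Of the further pathway genes 20 passed with DESeq2, 35 with limma voom, 0 with the replicate block, and from 0 to 14 with a library left out. Over all genes the numbers were 3904, 5570, 12, and from 2 to 3234, against 1139. The highest was without NCD replicate 1. Without NCD replicate 2 or 3 it was 2 each, and without HFD replicates 1 to 3 it was 2, 7 and 4. Genes higher and lower on HFD numbered 850 and 289 with all libraries, 1665 and 1569 without NCD replicate 1, 2153 and 1751 with DESeq2, 2823 and 2747 with limma voom, and 5 and 7 with the replicate block. The cause of these changes was not tested. Deviations of same-numbered mice from their group means had correlations of -0.05, -0.02 and -0.02. The NCD means include NCD replicate 1, so these values cannot show whether the mice were paired. None of the 10 genes passed with or without the replicate block, and 12 of all genes passed with it. Each of the 10 genes had at least 542 counts in every library.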
